A study of Mus musculus with 75 samples.

Results

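The nuclear genes of the mitochondrial respiratory chain were followed through 75 mouse libraries of germ cells and of germ cell-like cells grown from embryonic stem cells. Members were the table's gene names that matched Nduf followed by a, b, c, s or v and digits, that started with Uqcr, that were Sdha, Sdhb, Sdhc or Sdhd, or that matched Cox followed by 4, 5, 6, 7 or 8. The rule took 68 of 26218 gene names: 37 for complex I, 4 for complex II, 8 for complex III and 19 for complex IV. It dropped 0 names for containing -ps. Cox4nb, an older name of Emc8, met the rule by its letters but encodes a protein of the endoplasmic reticulum membrane complex. It was kept in the counts of members and left out of summed levels, which rest on 67 genes. Ndufa1, Ndufb11 and Cox7b, 3 of the 68, lie on the X chromosome.

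The series is titled for bone morphogenetic protein and retinoic acid as signals of female germ cell fate. Primordial germ cells (PGCs), the embryonic founders of eggs and sperm, came from ICR:C57BL/6=1:1 embryos, daily from E9.5 to E11.5 with the sexes together and daily from E12.5 to E15.5 by sex, with 2 libraries in each of 11 groups. Cells up to E13.5 carried Dppa3-EGFPTg/0 and were sorted as GFP(+) cells, and those at E14.5 and E15.5 carried Ddx4-RFPTg/0 and were sorted as RFP(+) cells. PGC-like cells (PGCLCs) of a 129S1:C57BL/6=1:1 line with Prdm1-mVenusTg/0 and Dppa3-ECFPTg/0 were taken at culture day 0, at day 3 (CT) and at days 5, 7 and 9 as groups labelled CT, RA and RB, again with 2 libraries in each of 11 groups. Factors for the female fate were given from day 3. The labels do not spell out CT, RA and RB. Cells of strain DBA/2:C57BL/6=1:1 with the same reporters were taken at day 3 (CT) and at days 5, 7 and 9 (RB), as wild type cells with 2 libraries a day and as Stra8-/- cells with 4. Of the 4 knockout libraries a day, 2 came from a line named SK1 and 1 each from SK2 and SK3. Cultured cells grew on feeder cells and were sorted as SC(+) cells, and day 0 cells as BV(+) cells. The other 7 libraries were alone in their groups and entered no test: 1 labelled 0R3B from the 129S1:C57BL/6 line at day 9, and 6 of C57BL/6 PGCLCs with Prdm1-mVenusTg/0, Dppa3-ECFPTg/0 and Gtrosa26tm1Sor/0. Nothing in the labels says that libraries of a group came from separate litters or cultures, so p-values measure the spread between these libraries, which may be technical.

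Complexes I to IV of the inner mitochondrial membrane pass electrons from NADH and succinate to oxygen, and complexes I, III and IV pump the protons that drive ATP synthase. Each complex joins catalytic core subunits to accessory subunits, and several small subunits of complex IV exist as isoforms of muscle, lung or testis. Complexes I, III and IV also hold subunits encoded in mitochondrial DNA, which were not analysed here. Female germ cells enter meiosis in the embryo, while male germ cells stop dividing and enter meiosis only after birth.

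Expression was read at the 3' ends of transcripts and given in RPM, reads of a gene scaled to all gene reads of its library, so that a member can be compared between libraries but members cannot be ranked against each other by level. Depth ran from 1.08 M to 15.6 M reads with a median of 3.15 M reads, and 3 reads were worth 0.192 to 2.78 RPM. Whether a gene changed its level or the 3' end it uses was not tested, and how reads shared with pseudogenes were counted is not given in the sources used here. Within their last 500 bases, 16 of 68 members overlapped another annotated gene, among them Ndufs1, Uqcrc2, Cox5a, Cox6c and Ndufb6 on the opposite strand. Some overlapped a gene on the same strand, among them Ndufa13 and Cox4i1. Ndufa1, Ndufv2, Cox7b and Cox8a overlapped no other gene there. In bulk samples, fewer cells of a type and less RNA per cell cannot be told apart.

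Promoters are shown for Ndufa1, Cox7b and Cox8a because these 3 members had the largest changes from E11.5 to E15.5 in females, Ndufa1 upward and the other two downward. RefSeq windows (GRCm38.p6) from 250 bases before to 50 after the start were found for 53 of 68 members. They are printed 5′ to 3′ on the gene's strand, with matches to the motifs of the next paragraph in capitals. The window of Ndufa1 is chrX:37191189-37191488 on the minus strand, that of Cox7b chrX:106015450-106015749 on the plus strand and that of Cox8a chr19:7217567-7217866 on the minus strand.
Ndufa1: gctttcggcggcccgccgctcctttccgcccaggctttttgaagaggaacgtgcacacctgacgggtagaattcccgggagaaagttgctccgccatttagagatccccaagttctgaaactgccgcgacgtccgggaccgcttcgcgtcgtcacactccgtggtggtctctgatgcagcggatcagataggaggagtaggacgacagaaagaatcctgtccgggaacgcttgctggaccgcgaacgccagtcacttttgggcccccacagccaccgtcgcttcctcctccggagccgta
Cox7b: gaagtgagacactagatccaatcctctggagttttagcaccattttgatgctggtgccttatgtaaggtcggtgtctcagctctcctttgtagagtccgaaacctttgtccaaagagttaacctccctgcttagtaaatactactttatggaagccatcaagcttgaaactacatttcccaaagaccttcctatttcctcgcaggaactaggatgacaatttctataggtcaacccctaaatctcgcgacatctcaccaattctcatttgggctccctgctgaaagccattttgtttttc
Cox8a: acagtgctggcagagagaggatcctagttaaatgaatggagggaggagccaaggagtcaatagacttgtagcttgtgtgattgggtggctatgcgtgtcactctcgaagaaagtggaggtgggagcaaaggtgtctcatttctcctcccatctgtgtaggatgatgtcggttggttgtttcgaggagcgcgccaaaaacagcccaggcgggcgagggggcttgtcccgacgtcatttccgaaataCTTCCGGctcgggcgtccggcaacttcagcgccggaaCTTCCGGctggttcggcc

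Both strands were searched for the core of the NRF1 motif (GCGCATGC), of the ETS family motif (CCGGAAG) and of the YY1 motif (AAGATGGCG), and for the motif of the meiotic factors STRA8 and MEIOSIN (CNCCTCAG); none of the 4 contains another. NRF1 and the ETS factor GABP are known regulators of respiratory chain genes. Members were counted as genes with a match in any window (53 genes, 55 windows). The background was counted as single windows, of genes expressed here or not. The NRF1 core was in 7 of 53 member genes (13.2%) and in 2.71% of all 32851 windows of the same length. The ETS core was in 11 (20.8%, beside 8.86% of all windows) and the YY1 core in 5 (9.43%, beside 1.4%). The STRA8-MEIOSIN motif was in 2 (3.77%, beside 7.94%), Sdhb and Uqcrc1. Cox8a held the ETS core at positions -5 and +33 from its start, and the windows of Ndufa1 and Cox7b held none of the 4 motifs.

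Summed over the 67 genes, respiratory chain transcripts moved apart between the sexes. The sum was 16719 and 16910.1 RPM in the 2 libraries at E11.5, 21336 and 21429 RPM in E15.5 females and 14989 and 14976 RPM in E15.5 males. Females at E15.5 stood above E11.5 and males below it, with no overlap. At E14.5 the sums were 17970.2 and 19020.3 RPM in females and 13059.5 and 15580.1 RPM in males, again without overlap. Sums at E12.5 and E13.5 are not given here, so these values do not date the start of the gap. Over the 64 members tested below, the median log2 difference, female minus male, was already 0.11 at E12.5 and 0.19 at E13.5. Over all genes tested it was 0 and 0.04. At E14.5 the member median was 0.48. Complex I, which has 37 of the 67 genes, held the greater part of the gap at E15.5. It summed to 9900.4 ± 135 RPM (SD, n = 2) in females and 6199 ± 110.3 RPM (SD, n = 2) in males. Complex IV summed to 8031 ± 338 RPM (SD, n = 2) and 6026 ± 196 RPM (SD, n = 2). Complex III summed to 2381 ± 116 RPM (SD, n = 2) and 1928 ± 95.3 RPM (SD, n = 2), and complex II to 1069.9 ± 21.1 RPM (SD, n = 2) and 829.6 ± 18.9 RPM (SD, n = 2). Females were higher than males in each of the 4 sums, which are weighted toward members with high values. Over the complex IV members tested below, Cox4nb among them, the median log2 difference at E15.5, female minus male, was -0.15. It was 0.66, 0.69 and 0.57 for complexes I, II and III. These sums are a description and were not tested.

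**Figure D1:**
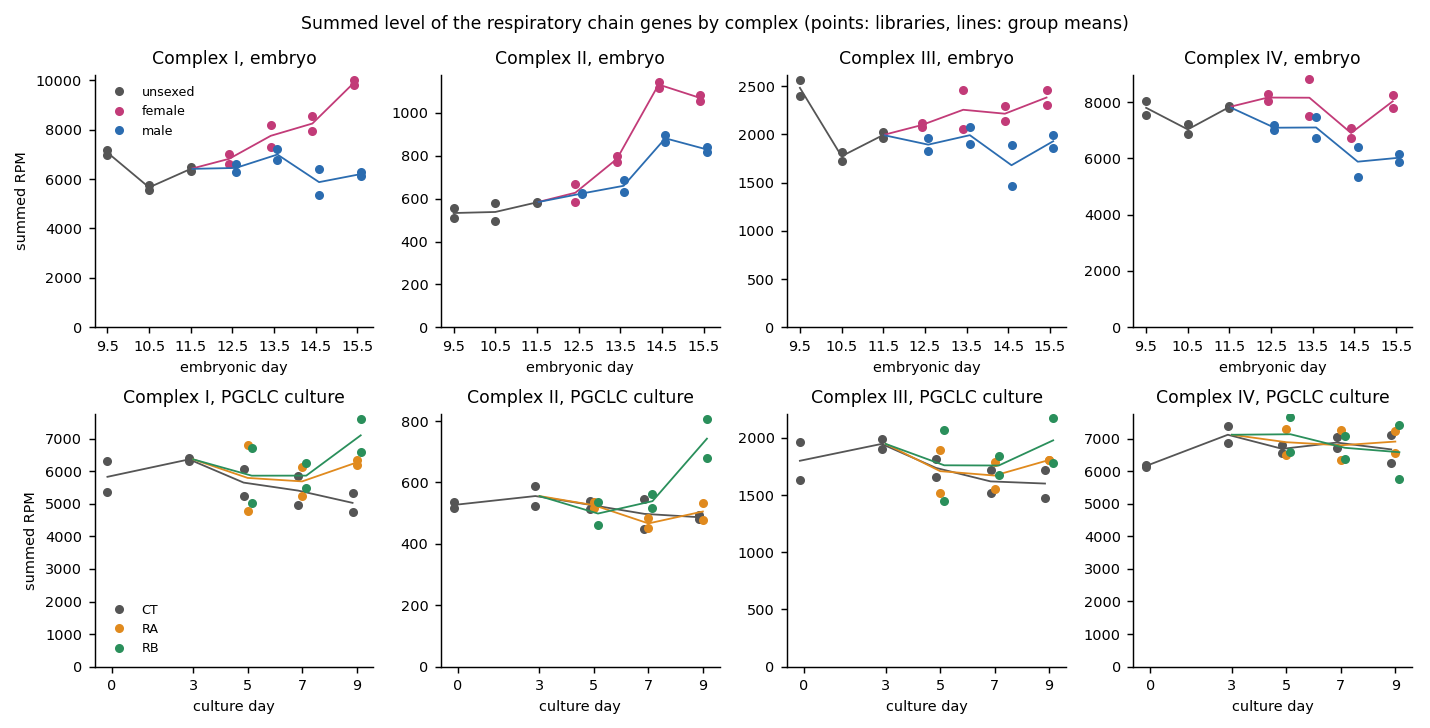
Summed RPM of the members of each complex, without Cox4nb, in each library of the embryo and of the cultures; points are libraries and lines join group means. Complex I reaches a mean of 9900.4 RPM in E15.5 females and 6199 RPM in E15.5 males.

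The number of members that differed between the sexes grew with stage, and so did the shares of all genes called. Members were tested with limma on log2(RPM + 1) if 2 or more libraries of their experiment held at least 5 RPM, which was so for 64 of 68 in the embryo, and were called higher or lower at an adjusted p below 0.05. At E12.5, 6 members were higher in females (9.38%, beside 6.8% of all genes tested) and 3 lower (4.69%, beside 6.38% of all genes). At E13.5, 15 were higher (23.4%, beside 17.4% of all genes) and 5 lower (7.81%, beside 13% of all genes). At E14.5, 36 were higher (56.2%, beside 31.8% of all genes) and 15 lower (23.4%, beside 35.5% of all genes). At E15.5, 38 were higher (32.2% of all genes) and 14 lower (38.2% of all genes). The 38 are 59.4% of the tested members and the 14 are 21.9%, so higher calls were more frequent and lower calls less frequent among members than among all genes at E15.5, while the counts at E12.5 and E13.5 lay nearer to the background. The median log2 difference at E15.5, female minus male, was 0.57 over the members and -0.14 over all genes tested. The sex difference was itself larger toward females at E15.5 than at E12.5 for 30 members (27% of all genes) and larger toward males for 16 (32.2% of all genes). The 9 calls at E12.5 were 3 without the second male library, 4 without the first and 4 without the second female library, and the 20 at E13.5 were 13 without the first male library. Stage and sorting reporter cannot be told apart in any change from E13.5 or earlier to E14.5 or later. Both sexes of a stage were sorted alike.

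By complex, calls at E15.5 are set beside 32.2% of all genes higher in females and 38.2% lower. In complex I, 23 of 36 tested genes were higher in E15.5 females and 5 lower. In complex II, 3 of 4 were higher and 1 lower, in complex III 5 of 8 higher and 3 lower, and in complex IV 7 of 16 higher and 5 lower. Cox4nb, which is not a complex IV subunit, was among these 16 and among the 5. Markers of other cells differed as well. Summed over 11 gonadal somatic markers the level was 50.9 to 53.3 RPM in E15.5 males and 13.9 to 18.1 RPM in females, with 1 of 11 and 3 of 11 at 0 in both libraries. For 8 fibroblast markers it was 83.4 to 103 RPM and 6.69 to 32.8 RPM (0 of 8 and 1 of 8 at 0), and for 6 muscle markers 48.2 to 58.2 RPM and 0.989 to 1.18 RPM (2 of 6 and 2 of 6 at 0). All 3 sums were higher in males. Summed germ cell markers were 3323 to 3976 RPM in males and 2188 to 2526 RPM in females, with 0 of 8 at 0. The part of such cells in the sex differences was not tested.

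**Figure D2:**
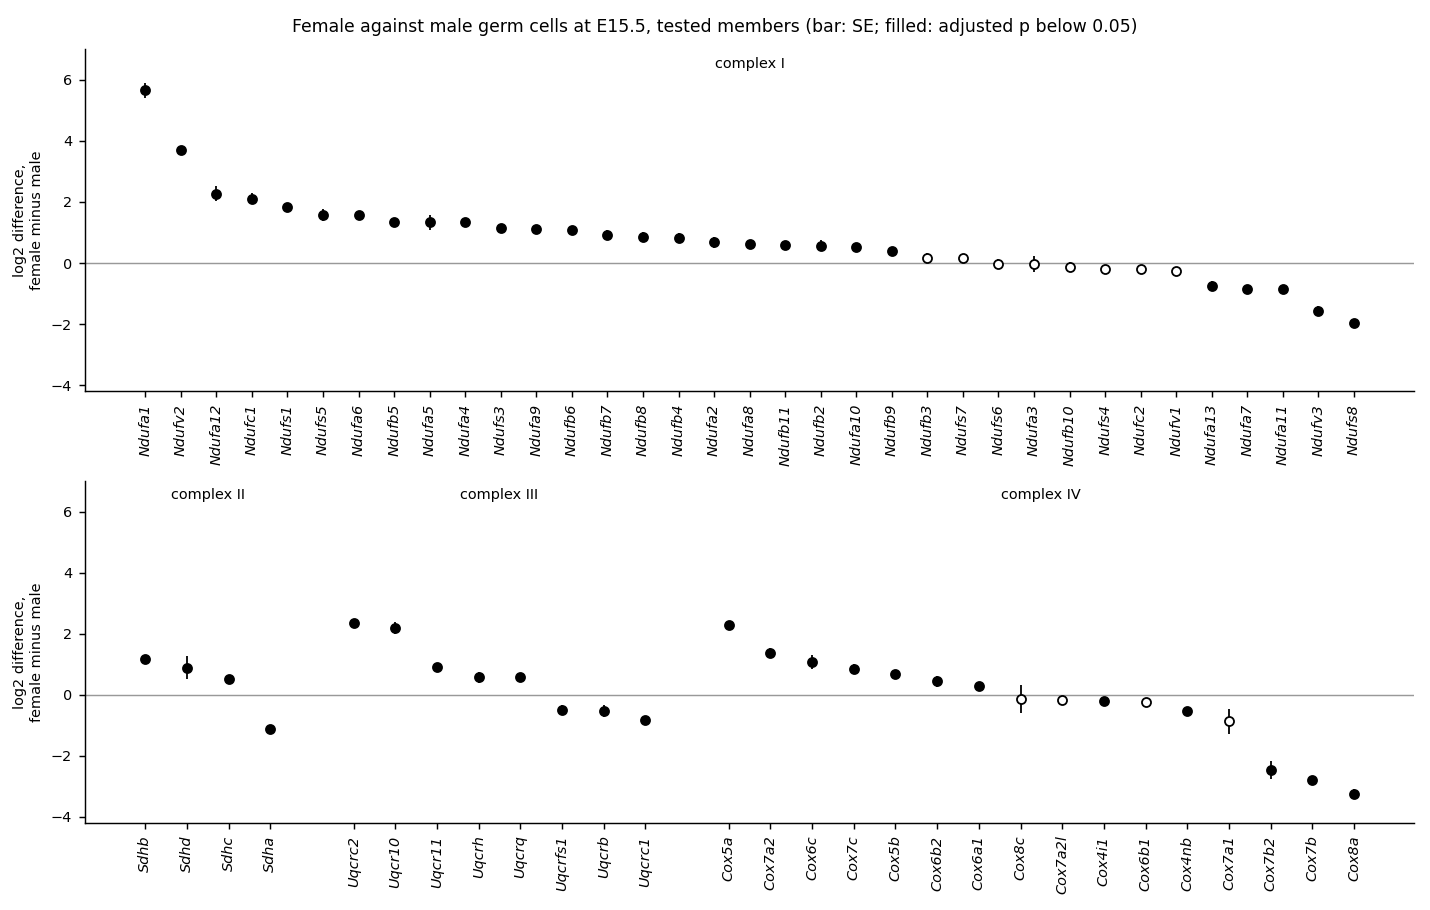
Log2 difference, female minus male, at E15.5 for tested members, grouped by complex; bars are standard errors and filled points passed the adjusted p of 0.05. Ndufa1 stands highest at 5.66 and Cox8a lowest at -3.26.

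In complex I, Ndufa1 moved most. It encodes a small membrane subunit needed to assemble the complex. Its level was 64.3 and 55.2 RPM at E11.5, 297 and 405 RPM in E14.5 females and 847 and 1029 RPM in E15.5 females. In males it was 7.23 and 16.9 RPM at E14.5 and 18.2 and 16.9 RPM at E15.5. Female libraries at both stages stood above E11.5 and male ones below it. From E11.5 to E15.5 Ndufa1 rose 15.7-fold in females (log2 difference 3.95 ± 0.25 SE, adjusted p 1.5e-12, limma) and fell 3.40-fold in males (log2 difference -1.71 ± 0.25 SE, adjusted p 2.7e-06, limma). The sexes differed 53.5-fold at E15.5 (log2 difference 5.66 ± 0.25 SE, adjusted p 3e-15, limma). At E13.5, with 114 and 77.9 RPM in females and 59.98 and 49.2 RPM in males, the gene was already called higher in females, and at E12.5, with 73.01 and 75.4 RPM and 52.1 and 40.2 RPM, it was not.

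Core subunits of complex I split, and Ndufv2, Ndufs1 and Ndufs3 were higher in E15.5 females. Ndufv2, an iron-sulfur protein of the module that oxidises NADH, was at 127 and 145 RPM at E11.5, 567 and 533 RPM in females and 38.5 and 44.1 RPM in males, 13.3-fold apart (log2 difference 3.70 ± 0.13 SE, adjusted p 5.5e-17, limma). It rose in females and fell in males. Ndufs1, the largest iron-sulfur subunit, was at 129 and 94.96 RPM at E11.5, 342 and 288 RPM in females and 97.5 and 78.7 RPM in males. Ndufs3, a core subunit, was at 190.1 and 202 RPM in females and 84.5 and 90.3 RPM in males.

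Other accessory subunits of complex I were also higher in E15.5 females. Ndufa12, near the NADH-oxidising module, was 41.2 and 55.7 RPM in E15.5 females and 7.41 and 11.3 RPM in males. Ndufc1 was 211 and 269.7 RPM and 56.7 and 52.2 RPM, and Ndufs5 was 534 and 489.9 RPM and 163 and 180.4 RPM. In each of these the sexes did not overlap, with females 5.18-fold, 4.41-fold and 2.98-fold higher. Ndufb6, of the membrane arm, rose in both sexes, from 212 and 242 RPM at E11.5 to 707 and 662 RPM in females and 338 and 308 RPM in males. The X-linked Ndufb11, another membrane-arm subunit, was called higher in females at each of the 4 stages. It was 305 and 343 RPM in females and 229 and 198 RPM in males at E12.5, and 510.2 and 399 RPM and 275 and 329 RPM at E15.5, with no overlap at either stage and a log2 difference of 0.60 and 0.58.

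Ndufv1 and Ndufs7, core subunits that carry electrons, were 361 and 305 RPM and 302 and 283 RPM in E15.5 females and 369 and 436 RPM and 266 and 261 RPM in males, and neither was called. Other complex I genes went the opposite way. Ndufs8, a core iron-sulfur subunit, was at 88.7 and 105 RPM at E11.5, 60.2 and 47.04 RPM in E15.5 females and 188 and 238 RPM in E15.5 males, 3.97-fold lower in females. Ndufv3, an accessory subunit of the NADH-oxidising module, was at 106 and 106 RPM at E11.5, 61.5 and 52.3 RPM in females and 179.7 and 164 RPM in males, 3.02-fold lower in females. Both fell in females and rose in males. Ndufv2 and Ndufv3 thus belong to the same module and changed in opposite directions in each sex. Ndufa7, Ndufa11 and Ndufa13, accessory subunits, were 1.80-fold, 1.83-fold and 1.68-fold lower in females.

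**Figure D3:**
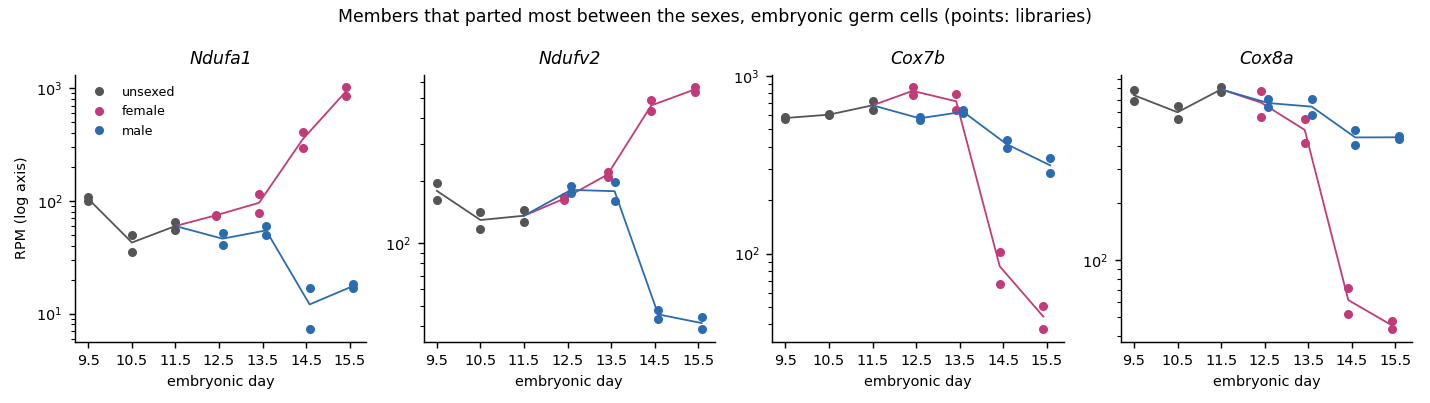
Ndufa1, Ndufv2, Cox7b and Cox8a in each embryonic library, RPM on a log axis, by embryonic day and sex; lines join group means. From E14.5 Ndufa1 and Ndufv2 are high in females and low in males, and Cox7b and Cox8a are lowest in females, at 37.4 and 50.9 RPM and 43.2 and 47.6 RPM at E15.5.

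The 4 genes of complex II split too. Sdha and Sdhb encode the flavoprotein and iron-sulfur protein of succinate dehydrogenase, and Sdhc and Sdhd its membrane anchors. Sdhb was at 229.9 and 209 RPM at E11.5, 541 and 543 RPM in E15.5 females and 239 and 242 RPM in E15.5 males, 2.25-fold apart. Sdha was at 188 and 200.5 RPM, 154 and 143 RPM and 308 and 333 RPM, 2.16-fold lower in females. The catalytic partners therefore differed between the sexes in opposite directions. Sdhc rose in both sexes, from 161 and 166 RPM to 386 and 367 RPM in females and 295 and 239 RPM in males. Sdhd stayed between 0.741 and 10.9 RPM over all 75 libraries, and at E15.5 was 3.65 and 2.51 RPM in females and 0.741 and 1.76 RPM in males, so its calls rest on a few reads.

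In complex III the core protein genes Uqcrc1 and Uqcrc2 diverged. Uqcrc2 was at 184 and 204 RPM at E11.5, 500.5 and 426 RPM in E15.5 females and 85.6 and 94.9 RPM in E15.5 males, 5.13-fold apart. Uqcrc1 was at 301 and 319.5 RPM, 355 and 325 RPM and 552 and 667 RPM, 1.79-fold lower in females. So the sex that was high for one core protein was low for the other. Uqcr10, a small subunit, was 227 and 247 RPM in females and 49.3 and 52.9 RPM in males, below the 165 and 191 RPM of E11.5 in males only. Uqcrq, a small subunit, fell in both sexes, from 196 and 184 RPM to 82.7 and 92.4 RPM in females and 61.5 and 56.1 RPM in males. Uqcrfs1, which encodes the Rieske iron-sulfur protein, fell in both as well, from 312 and 309 RPM to 177 and 171 RPM and 262 and 229 RPM.

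In complex IV, Cox5a rose while Cox7b and Cox8a fell in the same female libraries. Cox5a, a subunit on the matrix side, was at 1079 and 1143 RPM at E11.5, 1721 and 1664 RPM in E15.5 females and 362 and 332 RPM in E15.5 males, 4.87-fold apart (log2 difference 2.28 ± 0.09 SE, adjusted p 4.2e-16, limma). Cox7b, an X-linked membrane subunit, was at 645 and 721 RPM at E11.5, 792 and 647 RPM in E13.5 females, 102 and 67.7 RPM in E14.5 females and 37.4 and 50.9 RPM in E15.5 females. Males held 434 and 391 RPM at E14.5 and 343 and 283 RPM at E15.5. Both sexes fell, females 15.46-fold (log2 difference -3.93 ± 0.15 SE, adjusted p 1.3e-16, limma) and males 2.18-fold. Cox8a, another small membrane subunit, was at 818 and 765 RPM at E11.5, 555 and 414 RPM in E13.5 females and 70.97 and 52.3 RPM in E14.5 females. At E15.5 it was 43.2 and 47.6 RPM in females and 434 and 452 RPM in males. Its fall from E11.5 was 17.4-fold in females (log2 difference -4.09 ± 0.16 SE, adjusted p 1.3e-16, limma) and 1.79-fold in males. The X-linked members Ndufa1 and Cox7b thus changed in opposite directions in females.

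Isoforms of complex IV subunits had courses of their own. Cox7b2, the paralog of Cox7b, was at 14.4 and 14.4 RPM at E11.5, 15.52 and 11.97 RPM in E15.5 females and 76.7 and 83.6 RPM in E15.5 males, and it rose in males. Cox8c, the paralog of Cox8a known from testis, was listed at 3.15 and 0 RPM at E11.5, and reached 23.4 and 20.04 RPM in females and 21.1 and 27.2 RPM in males, where the sexes overlapped. Cox8c rose while Cox8a fell in both sexes. Cox6b2, the testis isoform of Cox6b, fell from 102 and 102 RPM to 62.5 and 46.3 RPM in females and 42.6 and 36.7 RPM in males, and the general isoform Cox6b1 from 499 and 432 RPM to 276 and 245 RPM and 319 and 299 RPM. Cox6a1, the general isoform of Cox6a, fell from 1048 and 1009 RPM to 731 and 735 RPM and 632 and 572 RPM. Cox6a, Cox6b and Cox8 isoforms of general use therefore fell in both sexes.

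Cox7a2l, which encodes a factor that joins complexes III and IV, rose from 334 and 388 RPM at E11.5 to 749 and 795 RPM in E15.5 females and 797 and 939 RPM in E15.5 males. Cox7a2, the general isoform of Cox7a, fell in males, from 324 and 328 RPM to 130.1 and 141 RPM, and was 299.7 and 409.8 RPM in females. Its muscle isoform Cox7a1 was higher in females at E12.5, at 23.99 and 38.1 RPM against 13.4 and 8.93 RPM, and not called between the sexes at E15.5. Cox4i1, the general isoform of Cox4, was 992 and 1037 RPM in females and 1133 and 1222 RPM in males at E15.5. Ndufa4, named for complex I and known as a complex IV subunit, was 461 and 455 RPM at E11.5, 421 and 410.3 RPM in females and 174 and 157 RPM in males. Cox7a2 and Ndufa4 were 2.62-fold and 2.52-fold higher in females than in males. The lung isoform Cox4i2 was 0 in 67 of 75 libraries with a highest value of 0.773 RPM. Cox8b, of muscle, was 0 in 74, with a highest value of 0.225 RPM. The muscle isoform Cox6a2 did not pass 4.09 RPM nor Ndufa4l2, the paralog of Ndufa4, 5.37 RPM, and none of these 4 was tested in the embryo.

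**Figure D4:**
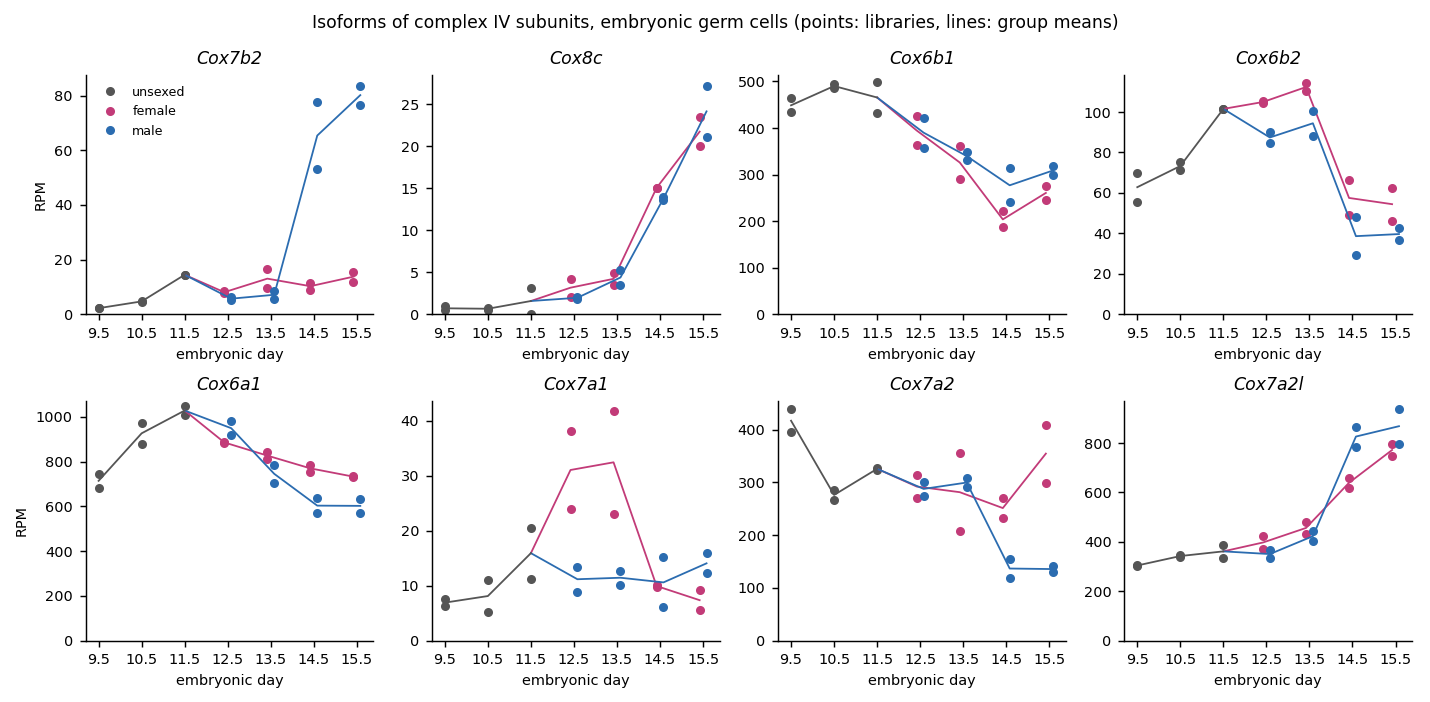
Isoforms of complex IV subunits in each embryonic library, in RPM by embryonic day and sex. Cox7b2 stands at 76.7 and 83.6 RPM in E15.5 males against 15.52 and 11.97 RPM in females, and Cox8c reaches 23.4 and 20.04 RPM in females and 21.1 and 27.2 RPM in males.

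Counted from E11.5, 32 of 64 members rose in females by E15.5 (37% of all genes) and 16 fell (32.9% of all genes). In males 16 rose (37.9% of all genes) and 27 fell (27.8% of all genes). Both comparisons share the E11.5 libraries, and in both stage and sorting reporter cannot be told apart. The median log2 change was 0.20 over members and 0.10 over all genes in females, and -0.22 and 0.21 in males. Complex I had 21 genes that rose and 6 that fell in females, and 9 and 13 in males. Complex III had 3 and 2 in females and 1 and 5 in males, and complex IV 6 and 7 and 4 and 8. Cox4nb was among the 7 counted for complex IV as falling in females.

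Before the sexes part, from E9.5 to E11.5, 11 members rose (12.1% of all genes) and 16 fell (10.4% of all genes). Ndufa5, an accessory subunit of complex I, fell from 108 and 112 RPM to 39.4 and 44.6 RPM. Cox6c, a complex IV subunit, fell from 666 and 668 RPM to 261 and 284 RPM, and Uqcrb, of complex III, from 542 and 525 RPM to 249 and 296 RPM. Ndufa1 fell over these days as well, from 109 and 99.1 RPM. Cox7b2 rose from 2.25 and 2.18 RPM and Ndufb11 from 191 and 208 RPM, to 14.4 and 14.4 and 286 and 312 RPM. Blood and endothelial markers summed to 3287 to 3520.3 RPM at E9.5 and 115 to 128 RPM at E11.5, and fibroblast markers to 115 to 119 RPM and 4.72 to 5.45 RPM; their part in these changes was not tested. The 27 calls were 13 without the first E11.5 library, and 17 and 14 without the first or second E9.5 library.

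With all groups in the fit and no replicate block, few members were called between day 0 and day 3 or along CT. From day 0 to day 3, 1 of 65 tested members was higher (4.45% of all genes) and 0 lower (3.32% of all genes). At an unadjusted p below 0.05 there were 5 higher and 0 lower. The member was Cox5a, at 774 and 689 RPM at day 0 and 1022 and 971 RPM at day 3. Its call was lost without either day 0 library and without the first day 3 library. From day 3 to day 9 in CT, 0 were higher (2.3% of all genes) and 0 lower (1.15% of all genes) by limma, with 2 higher and 14 lower at an unadjusted p below 0.05. The fit on these 2 groups only called 13 and the replicate block 12. The median log2 change was -0.22 over members and 0.02 over all genes. The summed level was 15859 and 16144 RPM at day 3 and 14638 and 12957 RPM at day 9 in CT.

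In RA at day 9, 8 members were higher than in CT (19.7% of all genes) and 0 lower (7.16% of all genes), with 0 lower at an unadjusted p below 0.05. With each library centred on its median the split was 3 higher and 3 lower. Ndufa1 was 97.4 and 108 RPM in RA and 60.7 and 33.6 RPM in CT, and Ndufv2 was 163 and 219 RPM and 107 and 102 RPM. Cox4i1 was 869 and 861 RPM and 689 and 544 RPM. RA stood above CT without overlap in each. Muscle markers summed to 32.5 to 49.9 RPM in RA and 1.93 to 2.34 RPM in CT, and fibroblast markers to 108 to 188 RPM and 38.5 to 97.1 RPM; their part was not tested. The 8 calls were 3 without the second CT library, and 4 and 3 without the first or second RA library.

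In RB at day 9, Ndufa1 and Ndufv2 were higher than in CT, and Cox7b and Cox8a were lower. Of 65 members, 26 were higher than in CT (34% of all genes) and 5 lower (21.2% of all genes), while centring each library on its median gave 12 and 11. Cox8c and Ndufa4l2 reached the filter of 5 RPM in 2 libraries only through RB at day 9, where they were high, and without them 24 members were higher. The median log2 difference was 0.38 over members tested and 0.19 over all genes. Ndufa1 was 367 and 238 RPM in RB and 60.7 and 33.6 RPM in CT, 6.41-fold apart (log2 difference 2.68 ± 0.41 SE, adjusted p 7e-06, limma). Ndufv2 was 309.8 and 311 RPM in RB and 107 and 102 RPM in CT, and Ndufs1 was 295 and 296 RPM and 139 and 125 RPM. Both were higher in RB without overlap. Sdhb was 272 and 339 RPM in RB and 145 and 151 RPM in CT, and Uqcrc2 was 354 and 399 RPM and 199 and 199.5 RPM. Cox5a was 1299.6 and 1239.8 RPM and 1018 and 997 RPM. Other members with wide sex differences at E15.5 were not called here. Ndufa12 was 45.5 and 27.2 RPM in RB and 28.1 and 21.99 RPM in CT, Uqcr10 was 165 and 97.7 RPM and 161 and 101 RPM, and Ndufs8 was 88.95 and 78.6 RPM and 68.1 and 68.9 RPM.

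The members that were lower in RB were led by Cox7b and Cox8a. Cox7b was 316 and 206 RPM in RB and 794 and 766 RPM in CT, 2.99-fold lower (log2 difference -1.61 ± 0.17 SE, adjusted p 4.1e-08, limma). Cox8a was 321 and 218 RPM and 784 and 769 RPM, 2.88-fold lower (log2 difference -1.55 ± 0.24 SE, adjusted p 6.6e-06, limma). Cox6b2, Ndufv3 and Uqcrfs1 were the other 3. At day 7 Cox7b was 648 and 626 RPM in RB and 859 and 884 RPM in CT, and Ndufa1 was 109 and 67.9 RPM and 67.4 and 36.5 RPM. Neither gene overlapped between RB and CT at that day, although the closest libraries of Ndufa1 were nearly equal. The isoforms Cox7b2 and Cox8c were 27.00 and 16.1 RPM and 14.7 and 11 RPM in RB at day 9. In CT they were 0.964 and 0.323 RPM and 0.321 and 0 RPM, near or under 3 reads, so no fold is given. Cox7b2, lower in females than in males at E15.5, was thus higher in RB. Of the 31 calls in RB against CT, 20 were left without the first RB library.

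Between RB and RA at day 9, 17 members were higher in RB (20.9% of all genes) and 9 lower (21.1% of all genes), and 15 were higher without Cox8c and Ndufa4l2. Cox7b was 316 and 206 RPM in RB and 852 and 773 RPM in RA, 3.11-fold lower in RB. Ndufa1 was 97.4 and 108 RPM in RA, 2.95-fold below RB. Uqcrc2, at 188 and 206 RPM in RA, and Ndufs1, at 141 and 162 RPM in RA, were 1.91-fold and 1.95-fold higher in RB. The 26 calls were 15 and 16 without the first or second RA library, and 17 and 13 without the first or second RB library.

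**Figure D5:**
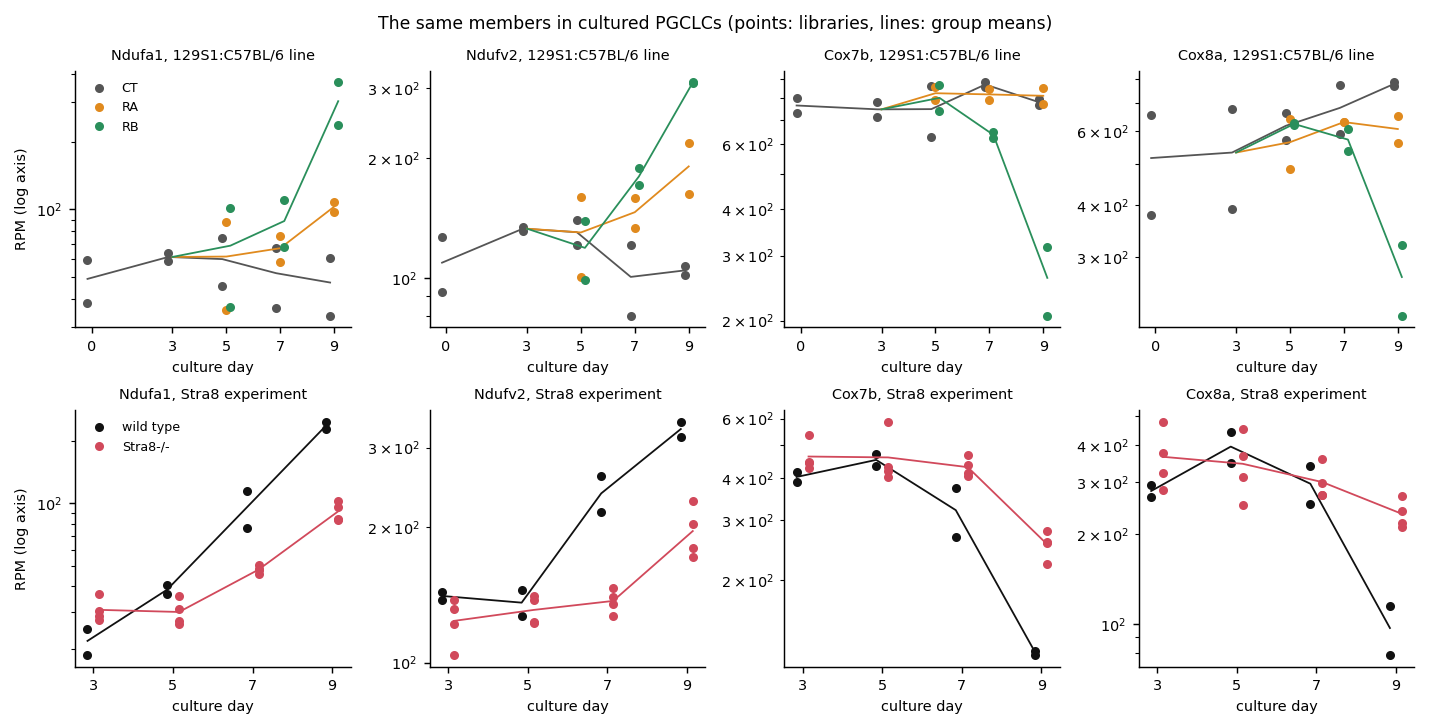
Ndufa1, Ndufv2, Cox7b and Cox8a in each cultured library, RPM on log axes by culture day, for CT, RA and RB in the 129S1:C57BL/6 line and for wild type and Stra8-/- cells, which were CT at day 3 and RB after it. At day 9 the knockout libraries hold 96.04, 103, 83.7 and 84.2 RPM of Ndufa1, below the wild type libraries at 227 and 248 RPM.

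Stra8 encodes a factor that retinoic acid induces and that germ cells need to enter meiosis. Its own level at day 9 was 1813 and 1717 RPM in wild type cells and 105, 77.9, 122 and 483 RPM in the knockout libraries, the last from SK3. Where the 3' reads lie relative to the deleted part is not given in the sources used here. In the wild type cells, 31 of 64 tested members rose between day 3 and day 9 (35.8% of all genes) and 7 fell (24.6% of all genes), and with median centring 23 rose and 10 fell. Ndufa1 went from 18.7 and 24.9 RPM to 227 and 248 RPM, a 10.9-fold rise, and Ndufs1 from 161 and 159 RPM to 408 and 422 RPM. Cox7b fell from 416 and 391 RPM to 123 and 119.9 RPM and Cox8a from 293 and 266 RPM to 115 and 78.7 RPM. Culture day and treatment cannot be told apart in this comparison.

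In Stra8-/- cells, Ndufa1 was lower and Cox7b and Cox8a were higher than in wild type cells at day 9. No named line held both genotypes, so genotype and cell line cannot be told apart here. In all, 5 members were higher in the knockout than in wild type (21.9% of all genes) and 14 lower (16.2% of all genes), while median centring gave 4 and 21. Ndufa1 was 96.04, 103, 83.7 and 84.2 RPM in the knockout libraries, 2.59-fold lower (log2 difference -1.37 ± 0.18 SE, adjusted p 2.8e-07, limma). Ndufv2 was 229, 203, 179 and 172 RPM against 342 and 317 RPM in wild type, and Ndufs1 was 247, 219, 289 and 257 RPM against 408 and 422 RPM. All 4 knockout libraries stood below both wild type libraries in these 3 genes. Sdhb was 199.9, 169, 184 and 159 RPM against 247 and 270.2 RPM, and Sdhc was 194, 192, 200.0 and 165 RPM against 279 and 275 RPM. Uqcrc2 was 276, 318, 309.6 and 313 RPM against 388 and 455 RPM. By complex, 1 gene of complex I was higher and 9 lower, 0 and 2 of complex II, 1 and 2 of complex III, and 3 and 1 of complex IV.

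The members that were higher in the knockout were Cox8a, Cox7b, Cox7a1, Ndufv3 and Uqcrq. Cox7b was 223, 258, 278 and 259 RPM, 2.09-fold above wild type (log2 difference 1.05 ± 0.13 SE, adjusted p 1.8e-07, limma). Cox8a was 269, 219, 211 and 239 RPM, 2.42-fold above wild type (log2 difference 1.29 ± 0.19 SE, adjusted p 2.2e-06, limma). In both, every knockout library stood above both wild type libraries. Cox8c was 9.73, 11.1, 9.57 and 8.50 RPM against 19.3 and 13.6 RPM and Cox7b2 23.4, 37.3, 25.8 and 34.00 RPM against 25.2 and 38.9 RPM, and neither was called. Without the SK3 library, 5 members were higher and 12 lower. The 19 calls were 11 without the second wild type library.

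The knockout difference was larger at day 9 than at day 3 toward the knockout for 3 members (13.46% of all genes), Cox8a, Cox7b and Ndufv3, and toward wild type for 15 (8.83% of all genes). Ndufa1 had the widest shift, a log2 difference of -1.85 ± 0.25 SE (adjusted p 2.6e-06, limma). At day 3 it was 30.2, 36.6, 28.7 and 27.6 RPM in the knockout, above the 18.7 and 24.9 RPM of wild type. The 18 calls were 7 and 9 without the first or second wild type library of day 3, and 9 without the first and 9 without the second of day 9. Some libraries of both genotypes hold at least 2000 RPM of spike-in reads and others less. At day 9, 1 library of each genotype held them, and 3 knockout libraries and 1 wild type library did not. The log2 difference of Ndufa1 was -1.24 with and -1.45 without, and that of Cox7b 0.85 and 1.14.

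Comparisons that share no library were set side by side over members tested in both. Of 52 members called between the sexes at E15.5 and 30 called between RB and CT, 27 were called in both, 51.9% of the first and 90% of the second. Of these, 24 had the same direction and 3 the opposite, beside 84.6% in the same direction among all 4731 genes called in both. The members were thus close to the share of all genes. RB against CT and knockout against wild type had 14 called members in common, 46.7% of the first and 73.7% of the second, with 0 in the same direction, beside 7.75% of all genes called in both.

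Other genes of mitochondrial metabolism, listed by function, were read from the same fits. Of 16 ATP synthase genes, 4 rose and 9 fell in females from E11.5 to E15.5 (37% and 32.9% of all genes), and 0 rose and 13 fell in males (37.9% and 27.8% of all genes). Atp5f1, of the stator stalk, was 576 to 619 RPM at E11.5, 2733 to 2847 RPM in E15.5 females and 115 to 122 RPM in E15.5 males. Atp5b, the catalytic beta subunit, was 2185 to 2237 RPM, 553 to 689 RPM and 1484 to 1570.0 RPM. Of 16 genes of porins, import and chaperones, 4 rose and 10 fell in females, and 4 and 10 in males, beside the same shares of all genes. Vdac1, a porin of the outer membrane, was 69.9 to 81.9 RPM at E11.5, 4.73 to 6.997 RPM in females and 8.82 to 13.7 RPM in males. In the same list, 1 was higher and 7 lower in RB than in CT (34% and 21.2% of all genes), and 10 were higher and 1 lower in the knockout than in wild type (21.9% and 16.2% of all genes).

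Of 24 tested assembly factors, 9 were higher and 8 lower in E15.5 females than in males, near the 32.2% and 38.2% of all genes. Ecsit, which helps to assemble complex I, was 117 to 138 RPM in females and 11.1 to 21.9 RPM in males, and 44.5 to 55.8 RPM in RB and 10.3 to 12.9 RPM in CT. Of 16 genes of the citric acid cycle and pyruvate dehydrogenase, 8 were higher and 6 lower in females, beside the same shares of all genes. Cs, citrate synthase, was 450.1 to 510.2 RPM in females and 119 to 125 RPM in males, whereas Mdh2, mitochondrial malate dehydrogenase, was 109.5 to 123 RPM and 866 to 964 RPM. Adjacent steps of the cycle thus differed in opposite directions. Of 15 tested electron carrier genes, 5 were higher and 4 lower in females (32.2% and 38.2% of all genes). In RB 8 were higher and 1 lower than in CT (34% and 21.2% of all genes). Etfb, a subunit of the electron transfer flavoprotein, was 115 to 139 RPM at E11.5, 11.1 to 19.8 RPM in females and 58.9 to 60.4 RPM in males. Of 14 tested regulators and genes of mitochondrial DNA expression, 6 were higher and 3 lower in females (32.2% and 38.2% of all genes).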

How the data were processed

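Transcript 3' ends were measured in 75 libraries amplified from 1 ng of RNA. The deposited signal, in RPM with 96 spike-in sequences on the same scale, was made by the authors; build mm10, Bowtie 1.0.1, TopHat 1.4.1, Cufflinks 2.2.0 and cutadapt 1.11 are named in the submitters' processing notes. Depth was read from the step that 1 read is worth; 82.8 to 92.2% of low values in a library were whole reads within 0.05 reads. The 2777 values above 0 and under 0.001 RPM were set to 0.

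Values were taken as log2(RPM + 1), which understates the change of low genes. Genes at 5 RPM or more in at least 2 libraries of an experiment were tested: 12567 for the embryo libraries, 11873 for the 129S1:C57BL/6 libraries, 12206 for the wild type and Stra8-/- libraries. Fits were made per experiment in limma 3.58.1 (R 4.3.3; lmFit, eBayes with trend), with 1 mean per group, residual degrees of freedom of 11, 11 and 16, two-sided tests and Benjamini-Hochberg adjustment over all genes tested. The code was tested on simulated data. Folds are ratios of mean RPM. Named were the members on the X chromosome, isoforms of complex IV subunits, Sdha to Sdhd, and per comparison up to 10 members with the largest called change each way; a member named by 1 comparison may be given in another, and Ndufs3, Ndufs7, Ndufv1 and single genes of the other lists were named after their values were seen. 1 member that the rule named is not reported here, by name or in a figure, and stays in counts and sums. Members and lists were chosen with earlier results of these data known.

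Libraries were not paired by replicate number in the fits above. Deviations of same-numbered libraries correlated at -0.07 to 0.05 over 55 pairs of groups in the embryo (median 0.002). In the line they correlated at -0.07 to 0.24 over 55 (median 0.069). The Stra8 experiment gave 0.0005 to 0.14 over 28 (median 0.067). Correlations this weak cannot exclude a shared run. In wild type and SK1 cells, the first library of each day held at least 2000 RPM of spike-in reads and the second did not. Alternatives were a pseudocount of 5 RPM, no filter, a filter of 20 RPM, median centring, quantile normalization, a replicate block, averaged SK1 libraries, fits on the compared groups only and leaving out each library; a term for spike-in reads was chosen after seeing the data. Promoters came from RefSeq (GRCm38.p6) and 3' overlaps from GENCODE on GRCm38.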

Additional observations from a re-analysis of the deposited data

Results flagged for a closer look

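The difference between the sexes was itself different at E15.5 and E12.5 by a test of that contrast in limma for the members given here. The log2 shift toward females was 4.97 for Ndufa1, 3.84 for Ndufv2, 2.19 for Uqcrc2, 2.10 for Ndufa12, 2.05 for Cox5a, 2.03 for Ndufs1, 1.85 for Ndufc1, 1.72 for Sdhd and 1.66 for Uqcr10. The log2 shift toward males was -3.32 for Cox7b, -3.25 for Cox8a, -2.91 for Cox7b2, -2.26 for Cox7a1, -1.50 for Ndufs8, -1.29 for Ndufv3, -1.22 for Sdha, -1.18 for Uqcrb, -1.10 for Ndufa13 and -0.95 for Uqcrc1. Markers of other cells moved with sex at E15.5, as given above, and their part was not tested.

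The knockout difference was itself different at day 9 and day 3 for further members. The log2 shift toward the knockout was 0.93 for Cox8a, 0.86 for Cox7b and 0.75 for Ndufv3. The shift toward wild type was -1.85 for Ndufa1, -0.94 for Cox6c, -0.78 for Uqcrh, -0.76 for Ndufb2, -0.70 for Ndufs5, -0.68 for Ndufs1, -0.67 for Ndufb6, -0.60 for Cox7a2, -0.57 for Ndufv2 and -0.54 for Uqcr11.

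Data outside the tested groups held 1 more signal. In the single library labelled 0R3B, taken at day 9 from the 129S1:C57BL/6 line, 30 of the 65 members tested in that line stood above all 22 other libraries of the line and 6 below them, beside 24.3% and 20.2% of all 11873 genes tested. With 1 library there is no replicate check. Of its low values 82.8% were whole reads, the lowest share of the 75 libraries. Its depth of 5.37 M reads was above that of all 22 other libraries of the line. The part of these traits in the counts was not tested.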

How the results depend on the processing

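Over the alternatives that kept all libraries and those that left out 1, 2773 values of named members were refitted. Of these, 2539 kept their side of the threshold and 234 lost their call. Of the 234, 177 were lost when a library was left out and 31 without the filter. The direction turned in 0, but the filter and the choice of groups do not enter a difference of group means. The 227 values without the filter, 215 at 20 RPM and 223 from compared groups only therefore could not turn. A replicate block also changes no difference where all groups hold the same replicate numbers. The 0 thus bears on the other refits only, and many members were named for large called changes. Fitting the compared groups only called 13 members from day 3 to day 9 in CT, 0 from day 0 to day 3, 42 between E9.5 and E11.5, 18 between the sexes at E12.5 and 17 between RA and CT. Without the filter 3 were called between the sexes at E12.5, 5 between RA and CT and 11 for the knockout difference at day 9 less day 3. Median centring called 1 from day 3 to day 9 in CT. It moved the median log2 difference of all genes from 0.20 to -0.07 for RA, from 0.19 to -0.13 for RB, from 0.23 to -0.03 for the wild type course, from 0.21 to 0.04 for males from E11.5 to E15.5 and from 0.11 to -0.0049 for the knockout at day 9 less day 3. Quantile normalization moved it from -0.14 to 0.02 between the sexes at E15.5, where 36 members were higher and 16 lower. At E12.5 the fit on compared groups only gave 14 higher and 4 lower. With the replicate block, 12 were called from day 3 to day 9 in CT, 2 from day 0 to day 3 and 17 between RA and CT. For the knockout difference at day 9 less day 3, the block called 9. Whether the replicate numbers mark a shared run is not known, so the counts with or without the block cannot be preferred. The cause of these moves was not tested.

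Leaving out 1 library gave these lowest and highest counts of called members: 13 to 18 for E11.5 against E9.5, 41 to 47 for E15.5 females against E11.5, 40 to 45 for E15.5 males against E11.5, 3 to 8 for the sexes at E12.5, 13 to 20 for those at E13.5, 44 to 49 for those at E14.5, 47 to 53 for those at E15.5, 40 to 45 for the sex difference at E15.5 less E12.5, 0 to 1 for day 3 against day 0, 0 to 0 for CT day 9 against day 3, 3 to 10 for RA against CT, 20 to 27 for RB against CT, 13 to 17 for RB against RA, 30 to 34 for the wild type course, 11 to 21 for the knockout at day 9 and 7 to 18 for the knockout at day 9 less day 3. The lone library of such a group was assumed to vary like the other groups. Depth limits Cox4i2, Cox6a2, Cox8b, Ndufa4l2 and Sdhd, which rest on a few reads, and RPM shows shares of a library and not amounts per cell.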

Other observations

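The single library labelled 0R3B was further from CT than the RB libraries in several members. Ndufa1 was 685 RPM there, Ndufv2 354 RPM, Cox7b 87.4 RPM, Cox8a 136 RPM and Cox7b2 73.7 RPM. Ndufa6, an accessory subunit of complex I, was 33.9 RPM, below the 109 RPM of the lowest other library of the line. Complex I summed to 9832 RPM.

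In C57BL/6 PGCLCs with Prdm1-mVenusTg/0, Dppa3-ECFPTg/0 and Gtrosa26tm1Sor/0, each condition had 1 library. Ndufa1 was 32.8 RPM at day 0, 21.7 RPM in the library labelled c0CT and 21.8 RPM in c0RB at day 2, 43.96 RPM at day 7, and 35.05 RPM in c7CT and 33.6 RPM in c7RB at day 9. Cox7b was 504 RPM in c7CT and 312 RPM in c7RB, and Cox8a was 454 RPM and 229.6 RPM. Ndufa1 was thus nearly equal in c7CT and c7RB, while Cox7b and Cox8a were lower in c7RB, with no replicate check.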
